A study of Mus musculus with 9 samples.

Results

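The mitochondrial genome of the mouse carries 13 protein-coding genes, and 10 of them are described here in brain myeloid cells. They are 5 subunits of complex I (ND1, Entrez gene 17716; ND2, 17717; ND4, 17719; ND5, 17721; ND6, 17722), 3 of complex IV (COX1, 17708; COX2, 17709; COX3, 17710), 1 of the ATP synthase (ATP6, 17705) and cytochrome b of complex III (CYTB, 17711). They were picked by these numbers, and all 10 had a row among the 36528 gene rows of the count files. RNA was sequenced from cells sorted for Cd11b, an integrin chain of microglia and other myeloid cells, from brains of mice 11 to 12 months old. Of the 9 libraries, 5 were from Tau-P301L mice (2 female, 3 male), which carry a transgene for mutant tau. The sources used here do not give its promoter. The other 4 were from wild-type littermates (2 female, 2 male). Libraries are numbered in sample order within a group. The labels do not tie libraries to single mice, and p-values therefore cover only the spread between these samples.

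These genes encode the core proteins of the respiratory chain, which moves electrons to oxygen and drives the making of ATP, and the other subunits come from the nucleus. Long RNAs are made from both strands of the circular genome and cut into single messages, many at the transfer RNAs that lie between them. ND6 is the one protein gene read from the light-strand promoter, while the other members are read from the heavy-strand promoter. Microglia keep this chain running at rest and lean more on glycolysis once activated. Fragments of mitochondrial DNA have also been copied into nuclear chromosomes, where they are annotated as pseudogenes.

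The first pattern in the data was a gap along the genome. COX2, ATP6 and COX3 lay together in a block with almost no counted reads, although the nearest members on either side had many. COX2, ATP6 and COX3 had 0 to 37 reads in each library, against 10058 to 49282 reads for COX1 on one side and 15706 to 62152 reads for ND4 on the other. The deposited counts hold reads that aligned to 1 place, per the file headers, so second exact copies of these sequences were looked for. In the GENCODE annotation of GRCm38, COX2 (MT:7013-7696), ATP6 (MT:7927-8607) and COX3 (MT:8607-9390) each have a pseudogene on the minus strand of chromosome 1. The compared part of COX2 (681 bases) is 100% identical to Gm28661 (chr1:24614885-24615565). The same holds for 678 bases of ATP6 and Gm10925 (chr1:24613974-24614651), and for 783 bases of COX3 and Gm28437 (chr1:24613189-24613971). A stretch of COX3 (MT:8907-8996, plus strand) and of its copy (chr1:24613582-24613671, minus strand), and one of COX2 (MT:7313-7402) and of its copy (chr1:24615176-24615265), are shown because they do not differ at any base. A stretch of ND2 (MT:4685-4774) and of its pseudogene Gm13339 (chr2:22590201-22590290, minus strand) is shown as a contrast, with the 6 differing bases in capitals. It was picked for having the most differences, up to 6. Over all 510 compared bases ND2 and Gm13339 are 96.67% identical, with 493 matching. All stretches shown are 90 bases long, 5′ to 3′, in GRCm38.
COX3: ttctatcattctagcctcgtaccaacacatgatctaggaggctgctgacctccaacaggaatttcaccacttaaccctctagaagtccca
Gm28437: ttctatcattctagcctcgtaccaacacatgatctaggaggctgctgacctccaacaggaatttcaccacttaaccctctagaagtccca
COX2: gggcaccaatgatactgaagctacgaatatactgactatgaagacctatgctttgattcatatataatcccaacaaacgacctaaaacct
Gm28661: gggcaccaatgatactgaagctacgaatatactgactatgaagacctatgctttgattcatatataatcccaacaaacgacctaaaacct
ND2: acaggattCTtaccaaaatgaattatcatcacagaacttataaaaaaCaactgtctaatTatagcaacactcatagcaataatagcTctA
Gm13339: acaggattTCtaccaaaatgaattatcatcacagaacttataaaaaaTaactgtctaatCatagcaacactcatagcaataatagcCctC

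Each gene was cut into all its windows of 75 bases, and a window was counted where the same letters occur in a transcript of another chromosome. The read length is not given in the sources used here, so windows of 50 and 100 bases were counted too. Of the 75-base windows, 99.5% of those of COX2, 99.5% of those of ATP6 and 99.9% of those of COX3 had an exact copy. ND4 (MT:10167-11544) had one for 61.5% of its windows, all in Gm28439 (chr1:24611535-24612410), which matches its first 876 bases at 100%. COX1 (MT:5328-6872) had one for 39.8%, in Gm29216 on chromosome 1 and Gm13340 on chromosome 2, which are 98.8% and 97.6% identical to it over the parts compared. ND2 (MT:3914-4951) and ND5 (MT:11742-13565) had one for 5.71% and 1.66%, and ND1 (MT:2751-3707), ND6 (MT:13552-14070, minus strand) and CYTB (MT:14145-15288) had none. With windows of 50 bases the shares of COX1 and ND4 were 51.1% and 62.2%, and with 100 bases 30.8% and 60.8%.

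The 3 protein genes of the same genome that are no members showed the same block. ND3, a subunit of complex I, had 28 to 149 reads and an exact copy for 97.8% of its 75-base windows. ND4L, also of complex I, had 0 to 5 reads and a copy for 98.7%. ATP8, a small subunit of the ATP synthase (MT:7766-7969), had 2 to 19 reads and no annotated copy of its own. It lies between COX2 and ATP6, whose copies on chromosome 1 stand in the same order with a gap between them. Mitochondrial and chromosome 1 positions of matching bases add up to 24622578 for COX1, COX2, ATP6, COX3 and ND3, and to 24622577 for ND4L and ND4. The copies thus keep the order and spacing of the genes on the reverse strand, with a 1-base step after ND3. How many reads were set aside for a second match was not tested. The values given below for COX2, ATP6 and COX3 describe counted reads and are not taken as levels of their RNA.

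**Figure D1:**
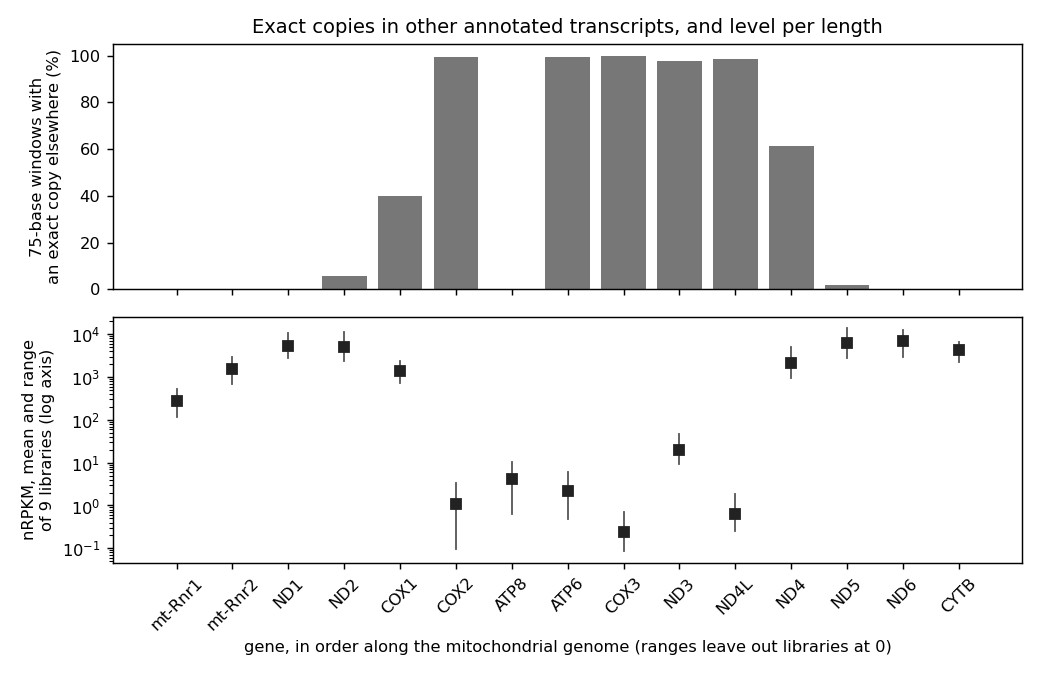
The upper panel plots, for 13 protein-coding and 2 ribosomal RNA genes in genome order, the percent of 75-base windows with an exact copy in an annotated transcript of another chromosome; the lower panel plots nRPKM on a log axis as the mean (square) and range (line) of 9 libraries. The genes with shares of 97.8% or more have mean levels of 19.6 nRPKM or less, as does ATP8 with no annotated copy, against 1349.9 nRPKM or more for the other members. Of the ribosomal RNA genes, both without such windows, mt-Rnr1 averages 273.5 nRPKM and mt-Rnr2 1507.0 nRPKM.

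The sorted cells carried the markers of microglia, whose 10 listed genes summed to 10127 to 17737 CPM (reads scaled to library size with TMM factors) for Tau-P301L, against 12344 to 16705 CPM for wild-type. Markers of neurons summed to 442 to 2825 CPM for Tau-P301L, against 724 to 1839 CPM for wild-type, over 10 genes. Most of that sum was the noncoding RNA Meg3, with 326 to 2587 CPM for Tau-P301L and 543 to 1596 CPM for wild-type. Snap25, of the synapse, had 41.9 to 92.9 CPM for Tau-P301L and 50.5 to 117.7 CPM for wild-type, while Rbfox3, Tubb3, Stmn2, Slc17a7 and Gad1 had at most 6.28 CPM for Tau-P301L and 13.8 CPM for wild-type. Those of astrocytes (8 genes) summed to 317 to 675 CPM for Tau-P301L and 317 to 419 CPM for wild-type, and those of oligodendrocytes (7 genes) to 329 to 1443 CPM for Tau-P301L and 513 to 711 CPM for wild-type. The 6 endothelial genes summed to 12.4 to 39.1 CPM for Tau-P301L and 19.4 to 31.8 CPM for wild-type, with 1 gene at 0 in every library. The 6 neutrophil genes summed to 0.953 to 209 CPM for Tau-P301L and 0.341 to 62.7 CPM for wild-type. The 5 red blood cell genes summed to 0.698 to 8.98 CPM for Tau-P301L and 0.682 to 4.15 CPM for wild-type, with 3 genes at 0 in every library. Slc1a2 alone had 186 to 540 CPM of the astrocyte sum for Tau-P301L and 203 to 283 CPM for wild-type. Tau-P301L library 5 had the highest sum for neurons, astrocytes and oligodendrocytes, and the part of these cells in the members' levels was not tested. Tau-P301L libraries held 1494727 to 2934587 reads and wild-type libraries 2681666 to 3793606, and 3 reads correspond to 0.791 to 2.01 CPM. Tau-P301L libraries 3 and 5 were left out in one alternative, a choice taken from earlier results of these data; no member passed for genotype without them.

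The members together took 9.26, 9.32, 21.4, 17.0 and 14.3% of all counted reads in Tau-P301L libraries 1 to 5, and 18.4, 9.37, 15.4 and 8.61% in wild-type libraries 1 to 4. The mean was 14.3 ± 5.19% for Tau-P301L (SD, n = 5), against 12.9 ± 4.74% for wild-type (SD, n = 4), a difference well inside the spread of either group. Both Tau-P301L females were low and all 3 Tau-P301L males were high, while in wild-type mice each sex had one high and one low library. In these bulk samples more mitochondrial RNA per cell cannot be told apart from a shift in which cells were sorted, or from fewer nuclear reads beside it.

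Levels per length are given as nRPKM, the authors' RPKM after scaling by 1 size factor per library. Within complex I, ND5, a proton-pumping subunit, averaged 6396 ± 3649 nRPKM over all libraries (SD, n = 9) and ND6, a small membrane subunit, 6974 ± 3639 nRPKM. Next came ND1 with 5351 ± 2758 and ND2 with 5031 ± 2903 nRPKM, and then CYTB of complex III with 4212 ± 1779 nRPKM. ND4, another proton-pumping subunit, averaged 2120.2 ± 1295 nRPKM and COX1, the catalytic core of complex IV, 1349.9 ± 534 nRPKM. The first 5 genes did not separate: within a library ND6 lay above ND5 in 6 of 9 libraries, ND5 above ND1 in 6, ND1 above ND2 in 6 and ND2 above CYTB in 7. CYTB lay above ND4 in 9 of 9 libraries (mean log2 ratio 1.08 ± 0.35, SD, n = 9), and ND4 above COX1 in 8 of 9.

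Levels were also divided by the share of 75-base windows without an exact copy. This takes every read from a copied window as lost and reads as evenly spread along a gene, and neither was tested. Divided so, ND4 averaged 5507 ± 3363 nRPKM (SD, n = 9), beside 6504 ± 3710.5 for ND5 and 5351 ± 2758 for ND1. It ranked 3 among the 7 members with at least 1000 reads in every library. COX1 stayed the lowest of the 7 at 2244 ± 887 nRPKM, and it was also lowest with windows of 50 bases (2763 ± 1092) and 100 bases (1952 ± 772). ND6 had the highest mean of the 7 under each window length. With windows of 50 bases it averaged 6974 ± 3639 nRPKM beside 6923 ± 3949 for ND5 (SD, n = 9), so these 2 genes did not separate. Whether counting used the strand is not stated, and reads of ND6 cannot be told apart from heavy-strand RNA that runs across the same bases, and 14 bases of ND6 also lie in ND5. COX2, a copper-binding subunit of complex IV, ATP6, which lines the proton path of the ATP synthase, and COX3 averaged 1.09, 2.18 and 0.24 nRPKM.

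ND1 had 3190.3, 3708, 10957, 8038 and 4499 nRPKM in Tau-P301L libraries 1 to 5, and 6436, 2778, 5698 and 2859 nRPKM in wild-type libraries 1 to 4. ND5 had 3369.8, 3382, 13685, 6760.3 and 6552 nRPKM in Tau-P301L libraries and 10428, 4009, 6590.0 and 2792 nRPKM in wild-type libraries. ND6 had 3947, 2949, 10847, 6335 and 8122 nRPKM in Tau-P301L libraries and 12591, 4394, 10367 and 3217 nRPKM in wild-type libraries. The groups overlapped for all 3, with Tau-P301L library 3 and wild-type library 1 at or near the top and Tau-P301L libraries 1 and 2 and wild-type libraries 2 and 4 low. ND4 had 1127, 1289, 5042, 2621 and 2356 nRPKM in Tau-P301L libraries and 2361, 943, 2395 and 949.6 nRPKM in wild-type libraries. COX1 had 918, 720.2, 1723, 1738 and 1126 nRPKM in Tau-P301L libraries and 2339, 1102, 1624 and 859.9 nRPKM in wild-type libraries. CYTB had 2724, 2271, 6761, 4505 and 4785 nRPKM in Tau-P301L libraries and 6306, 2729, 5596 and 2232 nRPKM in wild-type libraries. The same libraries were high and low for these genes as for the first 3. ND2 ranged from 2550.4 to 11326 nRPKM in Tau-P301L and from 2323 to 6468 nRPKM in wild-type libraries. Between the lowest and the highest library, levels spanned 3.03-fold for CYTB to 5.35-fold for ND4.

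**Figure D2:**
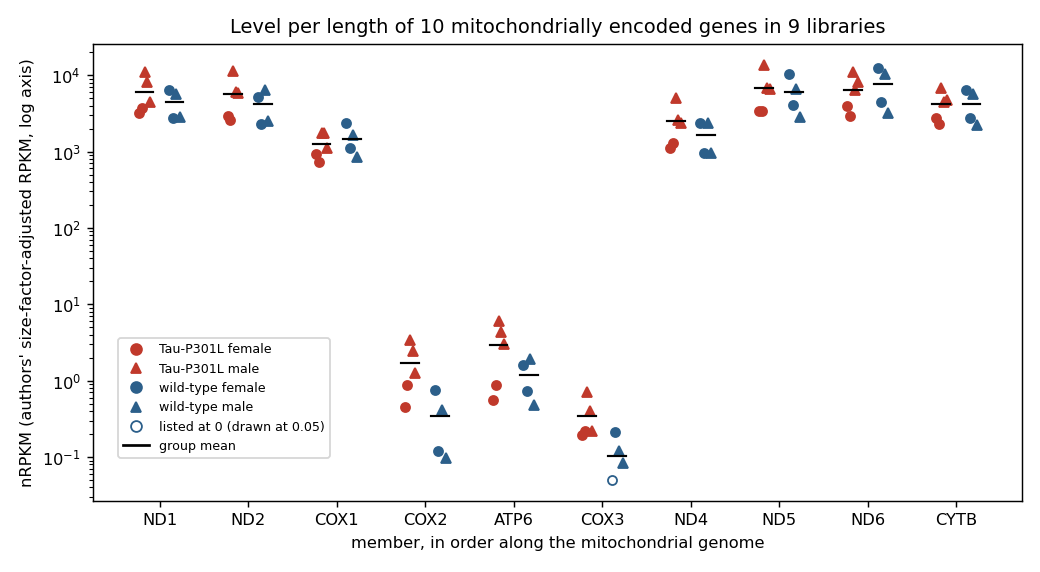
Points give the level per length of each member in each library as nRPKM on a log axis, with members in genome order, Tau-P301L left of wild-type, circles for females, triangles for males and a bar for the group mean. ND1, ND2, ND4, ND5, ND6, COX1 and CYTB lie at 720.2 nRPKM or above in every library, whereas COX2, ATP6 and COX3 lie at 6.07 nRPKM or below.

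The 7 well-counted members kept their proportions better than their level. The SD of log2 CPM over the 9 libraries was 0.56 for COX1 to 0.80 for ND4, against a median of 0.64 over all tested genes. The SD of a member's log2 ratio to the other 6 was 0.15 for CYTB, 0.20 for ND5, 0.27 for ND2, 0.28 for ND4, 0.29 for ND1, 0.32 for ND6 and 0.38 for COX1. COX1, which varied least in level, was thus the one whose ratio to the others varied most. ND5 took the largest part of the members' reads, 32.0 ± 2.24% for Tau-P301L (SD, n = 5), against 32.6 ± 4.16% for wild-type (SD, n = 4). ND6 took 9.07 ± 1.57% in Tau-P301L and 11.6 ± 1.55% in wild-type libraries. COX1 took 5.55 ± 1.31% in Tau-P301L and 7.23 ± 0.939% in wild-type libraries, and ND4 took 8.85 ± 0.828% and 7.01 ± 0.836%.

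Whether the genotype goes with another level of these genes was tested with edgeR's quasi-likelihood test over all 12250 genes that passed its low-count filter. It took in 8 of the 10 members, and COX2 and COX3 had too few reads. None of the 8 passed an adjusted p of 0.05 and none had an unadjusted p under 0.05, beside 0.00816% of all genes called higher, 0% called lower and 6.35% with an unadjusted p under 0.05 (3.57% higher and 2.78% lower). The groups overlapped in nRPKM for all 10 members, while 2.45% of all tested genes had groups that did not overlap (1.37% higher and 1.08% lower in Tau-P301L). With DESeq2, 0 members passed, beside 0.152% of genes with an adjusted p, and COX2 had an unadjusted p under 0.05, beside 4.52% of all genes.

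Among the complex I members, ND4 had a log2 fold change of Tau-P301L over wild-type of 0.31 (SE 0.38, edgeR adjusted p = 0.903), ND1 of 0.26 (SE 0.35), ND2 of 0.20 (SE 0.35) and ND5 of -0.022 (SE 0.43, edgeR adjusted p = 0.995). ND6 had -0.45 (SE 0.41, edgeR adjusted p = 0.862). Of complex IV, COX1 had -0.35 (SE 0.32, edgeR adjusted p = 0.864), and CYTB of complex III had -0.16 (SE 0.34). ATP6 had 0.74 (SE 0.76) on 5 to 37 reads in Tau-P301L and 5 to 15 reads in wild-type libraries. Its value was 0.099 without wild-type library 4, 1.24 without wild-type library 1, 1.16 without Tau-P301L library 1 and 1.29 without the sex term. The median over the 8 members was 0.087, beside a median of -7e-04 over all genes, with 4 estimates above 0 and 4 below. Without ATP6, the middle estimate was that of ND5 at -0.022. Without wild-type library 1, the values of ND5, ND6, COX1 and CYTB were 0.48, 0.055, 0.018 and 0.23, and none passed.

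The estimates differed in sign between the sexes. In males alone ND4, ND5, ND1 and ND2 had log2 fold changes of 0.97, 0.91, 0.85 and 0.75, and CYTB, ND6 and COX1 of 0.43, 0.29 and 0.28. In females alone the same 7 genes had values below 0, from -1.30 for ND6, -1.10 for ND5 and -1.07 for COX1 to -0.85 for CYTB, -0.46 for ND2, -0.45 for ND4 and -0.42 for ND1. None passed in either sex (smallest edgeR adjusted p = 0.797 in females and 0.867 in males). An unadjusted p under 0.05 was reached in females by ND5, ND6, COX1 and CYTB, beside 5.31% of all genes, and in males by COX2 (3.19, on few reads), beside 5.61%. The genes rise and fall together over the same few libraries, so those in females are not separate observations. The mean log2 CPM of the 7 genes was 13.29 and 13.40 in Tau-P301L females, against 13.37 and 14.66 in wild-type females. It was 14.17, 14.37 and 15.00 in Tau-P301L males, against 13.19 and 14.41 in wild-type males, so the genotypes overlapped in both sexes. By this mean the female difference rested on wild-type library 1 (14.66), as wild-type library 2 (13.37) lay between the Tau-P301L females.

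**Figure D3:**
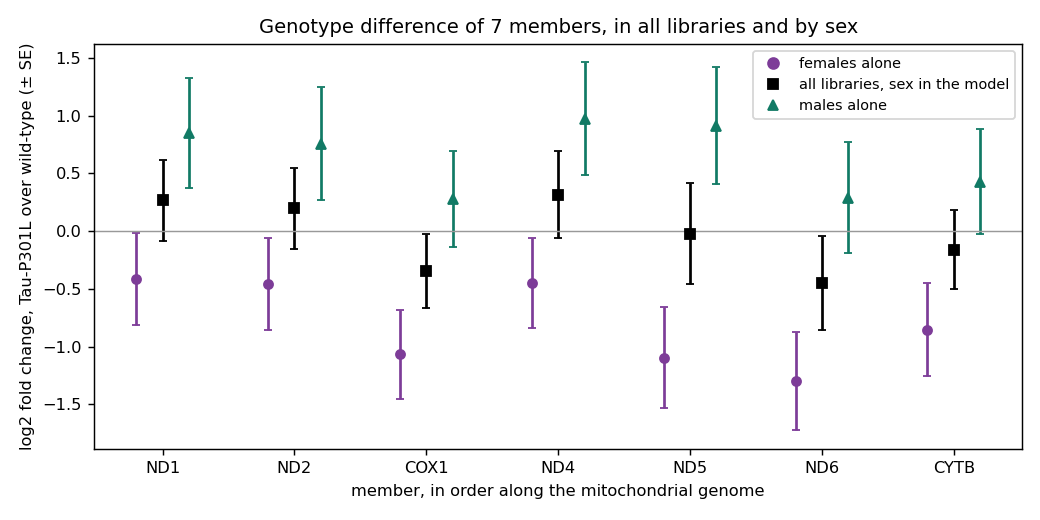
Each symbol gives the log2 fold change of Tau-P301L over wild-type for 1 of 7 members, with its SE as a bar, in females alone (circle), in all libraries with sex in the model (square) and in males alone (triangle). The values lie below 0 in females and above 0 in males for all 7, and none passes an adjusted p of 0.05.

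The difference between the sexes was tested as an interaction over 13302 genes, which took in 9 members. All 9 estimates, males minus females, were above 0, from 1.21 (SE 0.62) for ND2 through 1.34 (SE 0.55) for COX1 and 1.59 (SE 0.67) for ND6 to 2.01 (SE 0.66) for ND5, with 2.59 (SE 1.35) for ATP6 and 2.64 for COX2 on few reads. None passed after adjustment (edgeR adjusted p = 1.0 for each), and 5 of 9 had an unadjusted p under 0.05, beside 0% of all genes called in either direction and 3.95% with an unadjusted p under 0.05 (2.34% higher and 1.62% lower). The members share their libraries and rise and fall together, so these are not 5 separate observations. Without wild-type library 1, the highest wild-type female, the estimates were 0.51 for ND1, 0.49 for ND2, 0.59 for ND4, 1.14 for ND5, 0.61 for ND6, 0.68 for COX1, 0.53 for CYTB, 0.88 for COX2 and 1.89 for ATP6. Without wild-type library 4 they were 0.68 for ND2, 0.89 for ND4, 0.96 for ND6 and 0.75 for CYTB. Without wild-type library 3 they were larger, at 2.01 for ND2, 2.21 for ND4, 2.63 for ND6 and 2.06 for CYTB. With no low-count filter, ND5 alone passed (1.97, edgeR adjusted p = 0.00191), in a fit that called 22 of 24752 genes. Between males and females of both genotypes, 0 of 8 members passed (edgeR), beside 0.0327% of genes called higher and 0.0163% lower in males. All 8 estimates were above 0 and 1 had an unadjusted p under 0.05, beside 2.43% of all genes (1.38% higher and 1.05% lower): ND2 (0.88, SE 0.36). The well-counted members had a mean log2 CPM of 14.51 in Tau-P301L males, against 13.35 in Tau-P301L females. In wild-type mice the mean was 13.80 in males, against 14.02 in females, with overlap. On this average, males were thus higher in Tau-P301L only.

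Ratios between members within a library need no size factor, though those with few reads depend on the reads added before taking logs, and 4 were tested with exact two-sided permutation tests over the 9 libraries, for which 0.0159 is the smallest p possible. The first set ND6, from the light strand, against the mean of the other 9 members, as log2 of reads plus 0.5. It was 3.97, 3.41, 3.44, 3.29 and 4.03 in Tau-P301L libraries 1 to 5, and 4.89, 4.27, 4.58 and 4.15 in wild-type libraries 1 to 4. The groups did not overlap, and the ratio was lower by 0.84 in Tau-P301L libraries (exact permutation p = 0.0159, adjusted p = 0.0317 over the 4 ratios). The mean of the other 9 includes COX2, COX3 and ATP6 with their 0 to 37 reads. The second ratio, given next, also reached the smallest p possible and holds the same COX2 and COX3 counts. Each of these 2 ratios passes the adjustment only because the other does, so they are not 2 separate observations. Against the 6 other members with at least 1000 reads, the ratio was -0.54 ± 0.27 for Tau-P301L (SD, n = 5), against -0.15 ± 0.26 for wild-type (SD, n = 4), the groups overlapped and the test was not passed (exact permutation p = 0.0794, adjusted p = 0.148). In this form it was lower by 0.52 in Tau-P301L females, without overlap, and by 0.27 in Tau-P301L males, with overlap.

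The second ratio set ND1, ND2, ND4 and ND5 of complex I against COX1, COX2 and COX3 of complex IV. It was 9.41, 9.22, 9.58, 9.16 and 9.55 in Tau-P301L libraries, and 10.66, 9.63, 10.31 and 10.13 in wild-type libraries, again without overlap and lower by 0.80 in Tau-P301L (exact permutation p = 0.0159, adjusted p = 0.0317). With COX1 alone for complex IV the direction turned: the ratio was 1.12, 1.52, 2.18, 1.34 and 1.70 in Tau-P301L libraries and 0.90, 0.71, 1.30 and 0.99 in wild-type libraries. That is 0.60 higher in Tau-P301L (exact permutation p = 0.0317, adjusted p = 0.127), and the groups overlapped over all libraries. Within a sex they did not: the ratio averaged 1.32 in Tau-P301L females against 0.81 in wild-type females, and 1.74 in Tau-P301L males against 1.14 in wild-type males, with 2 or 3 libraries each and no test. The first form was lower by 0.83 in Tau-P301L females and by 0.79 in Tau-P301L males, also without overlap. It rests on COX2, which had 4, 7, 21, 16 and 5 reads in Tau-P301L and 7, 1, 3 and 1 reads in wild-type libraries, and COX3, which had 2, 2, 5, 3 and 1 reads in Tau-P301L and 0, 2, 1 and 1 reads in wild-type libraries. The form with COX1 alone also uses ND4, and both genes have the copied shares given above.

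ND1 and ND2, the first members along the heavy-strand RNA, over ND5 and CYTB, the last ones, stood at -0.42 ± 0.18 in Tau-P301L (SD, n = 5) against -0.72 ± 0.29 for wild-type (SD, n = 4; exact permutation p = 0.111, adjusted p = 0.148). ATP6 over COX3, its neighbour, stood at 2.32 ± 0.89 in Tau-P301L and 2.87 ± 1.604 in wild-type libraries (exact permutation p = 0.492, n = 5 and 4), on counts too low to rank the libraries. Neither ratio separated the groups over all libraries. In females the first averaged -0.45 for Tau-P301L and -0.97 for wild-type, without overlap, and in males -0.40 for Tau-P301L and -0.48 for wild-type, with overlap. ATP6 over COX3 was 1.81 lower in Tau-P301L females and 0.38 higher in Tau-P301L males, with overlap in both, and the difference between the sexes was not tested for either ratio. Among all 21 pairs of the 7 well-counted members, chosen after their levels were seen, 5 had an unadjusted p under 0.05, 0 had groups that did not overlap and 0 passed after adjustment over the pairs (smallest exact permutation adjusted p = 0.2). Those 5 were ND4 over COX1 (higher by 0.75 in Tau-P301L), ND4 over ND6 (0.69), ND1 over COX1 (0.62), ND2 over ND6 (0.58) and ND4 over CYTB (0.49).

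**Figure D4:**
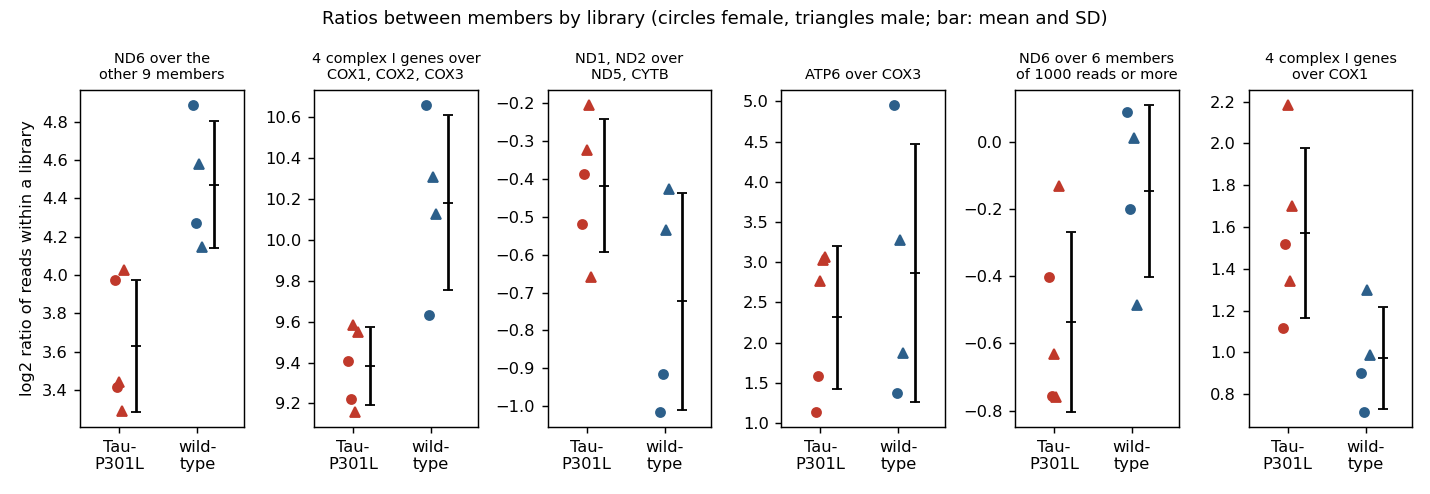
Each panel plots 1 ratio between members as log2 of reads within a library, on its own scale, with Tau-P301L left of wild-type, circles for females, triangles for males and the mean with its SD. The first 2 panels show groups apart, lower in Tau-P301L; with the members of few reads left out (last 2 panels) the groups overlap, and the complex I ratio is higher in Tau-P301L.

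Nuclear genes that make, cut and degrade mitochondrial RNA were read from a list of 44 genes in the files, of which 40 were tested and 0 passed in either direction (edgeR), with 3 at an unadjusted p under 0.05, beside 6.35% of all genes. The median log2 fold change was 0.15, beside -7e-04 over all genes, with 26 estimates above 0, beside 49.94% of all genes. Polrmt, the mitochondrial RNA polymerase, had -0.37 (SE 0.65), and its partners Tfam and Tfb2m had 0.22 (SE 0.53) and -0.33 (SE 0.83). Lrpprc, which keeps the messages stable, averaged 59.2 ± 13.0 CPM for Tau-P301L (SD, n = 5), against 59.4 ± 14.8 CPM for wild-type (SD, n = 4). Pnpt1, the nuclease that degrades mitochondrial RNA, averaged 40.1 ± 16.3 CPM for Tau-P301L, against 23.8 ± 8.76 CPM for wild-type (log2 fold change 0.78, SE 0.39, edgeR adjusted p = 0.776), and Supv3l1, its helicase, had -0.27 (SE 0.64). Slirp, the partner of Lrpprc, was not tested. The smallest p belonged to Mterf4 (1.05, SE 0.48), a factor of mitochondrial ribosome assembly, to Gabpa (0.67, SE 0.31), a nuclear transcription factor, and to Mterf1b (-0.94, SE 0.44).

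The nuclear genes most like the members were sought among 7729 genes of at least 10 CPM, by the SD over the 9 libraries of their log2 CPM minus the mean of the 8 tested members. The smallest belonged to Phc1, a Polycomb protein (SD 0.33), Ap2a1, a subunit of the clathrin adaptor (0.35), Crtc3, a coactivator of CREB (0.36), Luc7l3, a splicing factor (0.36), and Lrch3 (0.37), against a median of 0.89 over those genes. Against the mean of the 7 well-counted members their SDs were 0.31 to 0.33. Their log2 fold changes for genotype ran from -0.29 for Phc1 to 0.12 for Ap2a1, and none passed.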

How the data were processed

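Each of 9 files listed genes by Entrez number. The deposited counts are whole reads aligned uniquely to each gene model, and the second column is size-factor-adjusted RPKM (nRPKM), per the file headers. Both columns hold the same measurement (largest relative deviation 8.7e-15). The submitters' processing notes name GSNAP and GRCm38; the aligner's version, the annotation, strand use and read length are not given in these sources. Libraries held 1494727 to 3793606 reads.

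The members and lists were chosen with earlier results of these data known. Tests used edgeR 4.0.16 (R 4.3.3): quasi-likelihood, TMM, default low-count filter, sex as additive term, Benjamini-Hochberg over all genes at 0.05; the interaction added the product of sex and genotype. DESeq2 1.42.0 was an alternative. Ratios used exact permutation tests (scipy 1.17.1). Symbols came from RefSeq and sequences from GENCODE, both of GRCm38. The text names all members, and list genes by role or smallest p. Scripts were tested on simulated data. Alternatives were other size factors, library sizes from nuclear reads, no filter, no sex term, each sex alone, other pseudocounts and left-out libraries; ratios without members of few reads, window-corrected levels and member pairs were chosen after seeing the data.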

Additional observations from a re-analysis of the deposited data

How the results depend on the processing

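No paired analysis was possible because the libraries' numbers only follow sample order. No member passed for genotype or sex under any alternative run, and for the interaction 1 passed with no low-count filter. The genotype estimates changed sign in females alone for ND1 (-0.42), ND2 (-0.46) and ND4 (-0.45), in males alone for ND5 (0.91), ND6 (0.29), COX1 (0.28) and CYTB (0.43), for ND2 without Tau-P301L libraries 3 and 5 (-0.099) and for ND5 without the sex term (0.16); the cause was not tested. Leaving out 1 library gave genotype values of -0.065 to 0.65 for ND1, -0.17 to 0.57 for ND2, -0.080 to 0.75 for ND4, -0.50 to 0.48 for ND5, -0.90 to 0.055 for ND6, -0.68 to 0.018 for COX1 -0.54 to 0.23 for CYTB and 0.099 to 1.24 for ATP6, and sex values of -0.0038 to 0.60 for COX1. The light-strand ratio kept its sign and missed the threshold with 2 reads added (-0.73, adjusted p = 0.0635), without Tau-P301L libraries 3 and 5 (-0.91), without the members of few reads (-0.39) and without any 1 library (-0.95 to -0.70). The complex I to complex IV ratio did so with 2 reads added (-0.47, adjusted p = 0.0952), without Tau-P301L libraries 3 and 5 (-0.92) and without any 1 library (-0.98 to -0.64), and turned to 0.60 with COX1 alone. With fewer libraries the smallest exact permutation p is 0.0286 to 0.0571, so such losses say nothing about stability. With 0 reads added, the ratios with COX3 had no value. The ATP6 to COX3 ratio was -0.079 with 2 reads added, and it ran from -1.05 to 0.14 and the share of reads in the members, Tau-P301L minus wild-type, from -0.47 to 3.15 percentage points when 1 library was left out. At 0 to 37 reads a library, COX2, COX3 and ATP6 did not pass for genotype, and their counts are too low to show small differences. With all libraries, COX2 had a log2 fold change of 1.98 with DESeq2 (unadjusted p = 0.0361, adjusted p = 0.6245). It was 1.91 in edgeR with no low-count filter (adjusted p = 0.8199).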

Other observations

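The rest of the mitochondrial genome behaved much as the members did. Of 22 transfer RNA rows, 17 were tested and 0 passed for genotype (edgeR; 0 had an unadjusted p under 0.05), with a median log2 fold change of -0.14. For the interaction of genotype and sex, 0 of 17 passed, all 17 estimates were above 0 and 10 had an unadjusted p under 0.05, beside 3.95% of all genes. These rows share their libraries with each other and with the members, so they are neither separate observations nor a second test of the members' pattern. TrnD and TrnK, which lie on either side of COX2, had 0 reads in all 9 libraries, and so did TrnY. The ribosomal RNAs mt-Rnr2 and mt-Rnr1 stood at 1675 ± 783 and 255 ± 100 nRPKM in Tau-P301L (SD, n = 5), and at 1296 ± 631 and 296 ± 179 nRPKM in wild-type libraries (SD, n = 4), with log2 fold changes of 0.27 (SE 0.35) and -0.31 (SE 0.39). ND3 and ATP8 had 0.63 (SE 0.47) and 0.92 (SE 0.82), ATP8 on at most 19 reads.

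The nuclear partners of the members gave no call either. Of complex I, 25 of 36 listed subunits were tested and 0 passed (edgeR; 3 with an unadjusted p under 0.05, beside 6.35% of all genes). Their median was -0.35, with 21 estimates below 0 and 4 above, beside a median of -7e-04 and 49.94% above 0 over all genes. The subunits share their libraries, so these are not separate observations. Ndufb9 and Ndufa2 had the smallest p, at 0.824 ± 0.908 and 2.79 ± 3.11 CPM in Tau-P301L (SD, n = 5) and 4.74 ± 2.25 and 9.04 ± 3.06 CPM for wild-type (SD, n = 4). As 3 reads correspond to 0.791 to 2.01 CPM, Ndufb9 rested on very few reads in Tau-P301L. Other subunits were low there too, such as Ndufv1, Ndufs7 and Ndufb3 with means of 1.38, 1.64 and 2.04 CPM, while Ndufs1 averaged 26.7 CPM. Medians were -0.59 for complex III (8 tested, led by Uqcrc1 and Cyc1 at -0.74 and -0.62), -0.48 for complex IV (8 tested, Cox5a and Cox7b at -1.42 and 0.96) and -0.17 for complex V (12 tested, Atp5a1 and Atp5d at -0.56 and -0.60). None of those 28 had an unadjusted p under 0.05. Of the mitochondrial ribosome 47 of 78 genes were tested and 0 passed (edgeR; 3 with an unadjusted p under 0.05, beside the same 6.35%), with a median of -0.05, and Mrps25 (0.80, SE 0.27) and Mrps31 (1.50, SE 0.62) leading.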
